A study of Mus musculus with 14 samples.

Results

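The Elovl genes encode the fatty acid elongases, the enzymes of the endoplasmic reticulum that add carbon units to long fatty acids. All rows of the normalised count table whose gene symbol was Elovl1 to Elovl7 were taken. Of these 7 genes, 6 have a row among the 18355 genes of the table, and Elovl3, a gene known from skin glands and brown fat, has none and was not analysed here. All 6 passed the filter on low values and were among the 15565 genes tested.

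Each round of elongation starts with an Elovl enzyme, which joins an activated fatty acid to malonyl-CoA and sets the rate of the cycle. A ketoacyl reductase, a dehydratase and an enoyl reductase shared by all Elovl enzymes then complete the round. The family members differ in the fatty acids they take. Elovl6 lengthens palmitate, Elovl1, Elovl3 and Elovl7 extend saturated and monounsaturated chains, Elovl5 and Elovl2 act in turn on polyunsaturated chains on the way to docosahexaenoic acid, and Elovl4 makes the very longest chains in retina and skin. Myelin is rich in galactolipids that carry very long saturated and monounsaturated chains, and oligodendrocytes make them in quantity as they mature.

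Bulk RNA-Seq was performed on cells that magnetic beads pulled from dissociated mouse brains at P8, postnatal day 8. The CD140a (Pdgfra) beads collect oligodendrocyte precursor cells (OPCs) and the O4 beads collect immature oligodendrocytes. There were 4 libraries from 2aOKO and 3 from 2afl/fl brains in each sort, so 14 in all. Mfsd2a, the transporter of lysophosphatidylcholine that carries docosahexaenoic acid into cells, is floxed on both alleles in every mouse used here, and in 2aOKO mice it is deleted by a Cre transgene under the Pdgfra promoter. 2afl/fl mice are the controls without that deletion. Pdgfra is also active outside OPCs, in fibroblasts of the meninges for example, and O4 cells of 2aOKO mice inherit a deletion made at the OPC stage.

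The normalised counts of a library summed to between 34120823 and 41030171, with 16964 to 17662 genes above 0. The first principal component, which held 48.7% of the variance, put the OPC libraries between -42.5 and -36.7. The 2afl/fl O4 library 2 stood apart at 13.96, between the sorts, while the other O4 libraries lay between 29.8 and 53.9. Differences of the elongases that rest on it are therefore given with and without it. Most markers of the sorts went with the labels. By limma, 6 of 8 OPC markers were lower in O4 cells in 2aOKO and 5 in 2afl/fl at an adjusted p under 0.05. All 10 markers of committed and newly formed oligodendrocytes were higher in each genotype. Of 12 myelin genes, those summed further below, 10 were higher in each genotype, and 1 was lower in 2aOKO. Of all genes tested, 15.5% were lower and 17.6% higher in 2aOKO, and 12.2% and 14.3% in 2afl/fl. Pdgfra, the protein the OPC beads bind, was lower in O4 cells than in OPCs by limma (log2 difference -0.98 in 2aOKO and -0.97 in 2afl/fl, adjusted p = 0.000776 and 0.00373), and the myelin gene Mbp was higher (6.94 and 6.99, adjusted p = 9.54e-09 and 5.08e-08). OPC markers were still read in the O4 libraries, where their 8 genes summed to 395395 to 528040 in 2aOKO and 349288 to 575925 in 2afl/fl, against 683400 to 806288 in 2aOKO OPCs and 689714 to 828832 in 2afl/fl OPCs. Mfsd2a itself ran from 3615 to 7101 normalised counts in 2aOKO O4 cells and from 6762 to 12885 in 2afl/fl O4 cells. In OPCs it ran from 3665 to 7188 in 2aOKO and from 7585 to 16343 in 2afl/fl. The OPC groups did not overlap, as was so in this direction for 2.87% of all genes tested. By limma the log2 difference of 2aOKO minus 2afl/fl was -0.61 in O4 cells and -0.74 in OPCs (unadjusted p = 0.0772 and 0.0357). Neither difference passed the adjusted threshold in limma (adjusted p = 0.9992 in O4 cells and 0.9999 in OPCs). Whether the counted reads include the deleted exons is not given in the sources used here.

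All 6 elongases were read in every library, from 304 normalised counts upwards, and their proportions differed between the sorts. Levels of different genes are compared here as normalised counts per kilobase of exon, with exon lengths of 1941 bases for Elovl1 to 5951 bases for Elovl6. In OPCs the order from high to low was Elovl5, Elovl6, Elovl4, Elovl1, Elovl7 and Elovl2, and it was the same in 7 of 7 OPC libraries. Elovl5 averaged 3109 ± 91.8 per kilobase in 2aOKO OPCs (SD, n = 4) and 3036 ± 130 in 2afl/fl OPCs (SD, n = 3). At the low end, Elovl2 averaged 153 ± 19.3 per kilobase in 2aOKO OPCs and 155 ± 25.8 in 2afl/fl OPCs. In O4 cells Elovl5 was again first and Elovl2 last in 7 of 7 libraries, but Elovl7 had moved up among Elovl6 and Elovl4. Elovl6 exceeded Elovl7 in only 4 of the 7 O4 libraries and Elovl7 exceeded Elovl4 in 5 of 7, so these neighbours were not separated beyond their spread. Elovl4 exceeded Elovl1 in 7 of 7.

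The sum of the 6 genes per kilobase averaged 8550.0 ± 570.0 in 2aOKO O4 cells and 8253 ± 1167 in 2afl/fl O4 cells, against 6595 ± 212 in 2aOKO OPCs and 6389 ± 194 in 2afl/fl OPCs (SD, n = 4, 3, 4 and 3). Elovl7 made up 17.7% of that sum in 2aOKO O4 cells and 17.2% in 2afl/fl O4 cells, against 4.76% and 4.73% in the OPCs of the same genotypes. The share of Elovl5 was 33.8% in 2aOKO O4 cells and 33.3% in 2afl/fl O4 cells, against 47.1% and 47.5% in the OPCs. The exon lengths come from an annotation other than the one used for counting, so the levels per kilobase are approximate.

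**Figure D1:**
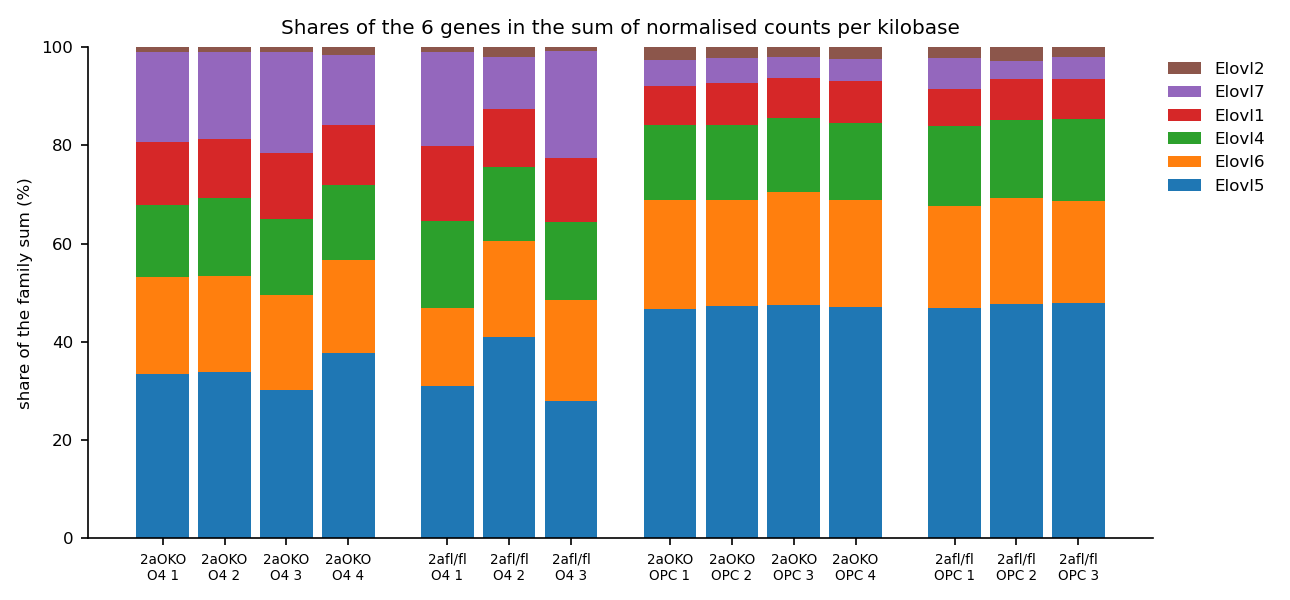
Share of each of the 6 Elovl genes, in percent, in the sum of their normalised counts per kilobase, with 1 bar per library. Elovl7 takes 10.6% to 21.8% of the sum in the O4 libraries and 3.63% to 6.19% in the OPC libraries.

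The first comparison asked how the elongases differ between O4 cells and OPCs. Elovl7, Elovl1 and Elovl4 rose in O4 cells of both genotypes, Elovl2 fell, and Elovl5 and Elovl6 did not pass the test. Elovl7 showed the widest difference, 4.80-fold in 2aOKO and 4.56-fold in 2afl/fl, followed by Elovl1 at 1.97-fold and 2.12-fold. Elovl4 was higher by 1.30-fold in 2aOKO and 1.28-fold in 2afl/fl, and Elovl2 stood at 0.63 and 0.64 of its OPC level. In each genotype 4 of the 6 genes were called at an adjusted p under 0.05, 3 higher and 1 lower. Of all genes tested, 33.1% were called in 2aOKO, with 17.6% higher and 15.5% lower, and 26.5% in 2afl/fl, with 14.3% higher and 12.2% lower. In bulk RNA, fewer cells of a type in a sort and less RNA per cell cannot be told apart.

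Elovl7 (chromosome 13, 108350938 to 108423642, plus strand, mm39) elongates long saturated chains. It had 6396, 5794, 7669 and 4606 normalised counts in the 2aOKO O4 libraries, against 1416, 1302, 1126 and 1185 in the 2aOKO OPC libraries. In 2afl/fl it had 6016, 3133 and 8360.2 in O4 cells, against 1537, 934 and 1155 in OPCs. Every O4 library was above every OPC library, and the lowest O4 value came from the 2afl/fl O4 library 2. By limma the log2 difference was 2.26 ± 0.24 in 2aOKO (SE, adjusted p = 1.17e-05) and 2.19 ± 0.28 in 2afl/fl (SE, adjusted p = 0.000109). Without the 2afl/fl O4 library 2 the difference in 2afl/fl was 2.58 ± 0.21.

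Elovl1 (chromosome 4, 118285290 to 118290150, plus strand) makes the very long saturated and monounsaturated chains of sphingolipids. Its normalised counts were 2163, 1914, 2434 and 1922 in the 2aOKO O4 libraries, against 1039, 1037, 1066 and 1117 in the 2aOKO OPC libraries. In 2afl/fl they were 2339, 1684 and 2436 in O4 cells, against 918, 1039 and 1052 in OPCs. The groups did not overlap, and again the 2afl/fl O4 library 2 was the lowest O4 library. The log2 difference was 0.98 ± 0.11 in 2aOKO (SE, limma, adjusted p = 2.16e-05) and 1.09 ± 0.13 in 2afl/fl (SE, limma, adjusted p = 6.12e-05), and 1.25 ± 0.10 in 2afl/fl without that library.

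Elovl4 (chromosome 9, 83660745 to 83688359, minus strand) makes chains beyond the reach of the other members. It had 3874, 3892, 4301 and 3695 normalised counts in the 2aOKO O4 libraries, against 3099, 2877, 3031 and 3115 in the 2aOKO OPC libraries. The 2afl/fl libraries had 4140.4, 3293 and 4541 in O4 cells, against 3015, 3033 and 3259 in OPCs. The groups were separate in both genotypes, in 2afl/fl by the narrow gap between 3293 in the O4 library 2 and 3259 in the OPC library 3. The log2 difference was 0.38 ± 0.09 in 2aOKO (SE, limma, adjusted p = 0.00393) and 0.35 ± 0.10 in 2afl/fl (SE, limma, adjusted p = 0.0179). In 2afl/fl the Elovl4 call was lost without the OPC library 1, the OPC library 2, the O4 library 1 or the O4 library 3 (adjusted p = 0.0565, 0.0531, 0.0637 and 0.0809), while without the O4 library 2 the log2 difference was 0.48 (adjusted p = 0.00025). Groups that did not overlap were common in this comparison, since 21.5% of all tested genes were higher in every 2aOKO O4 library than in every 2aOKO OPC library and 17.6% in 2afl/fl.

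**Figure D2:**
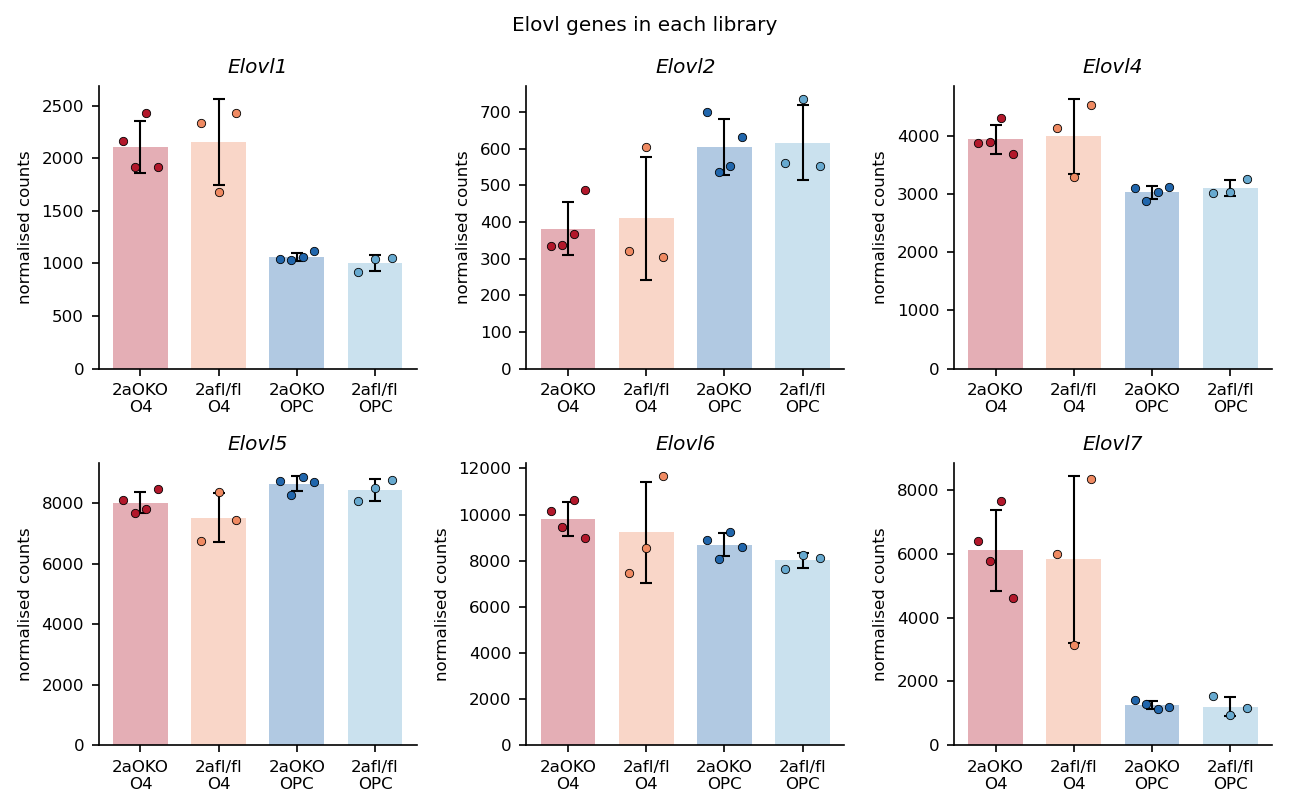
Normalised counts of the 6 Elovl genes in each library (points), with the mean (bar) and SD (error bar) of 2aOKO O4, 2afl/fl O4, 2aOKO OPC and 2afl/fl OPC libraries, n = 4, 3, 4 and 3. The O4 points of Elovl7 lie between 3133 and 8360.2 and its OPC points between 934 and 1537, while the genotypes overlap in every panel.

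The promoters of the genes that rose together are shown to set their sequences side by side. They run from 250 bases before to 50 after the annotated start in RefSeq on GRCm38.p6, at chr13:108214154-108214453 (plus strand) for Elovl7, chr4:118427843-118428142 (plus strand, the first of its annotated starts) for Elovl1 and chr9:83806256-83806555 (minus strand) for Elovl4. Capitals mark matches, on either strand, to the motif letters searched, which were TCACNCCAC (a sterol regulatory element), CACGTG (an E-box), CTGGNAC (the motif of Myrf, a transcription factor of myelination) and CCAAT (the box bound by NF-Y).
Elovl7: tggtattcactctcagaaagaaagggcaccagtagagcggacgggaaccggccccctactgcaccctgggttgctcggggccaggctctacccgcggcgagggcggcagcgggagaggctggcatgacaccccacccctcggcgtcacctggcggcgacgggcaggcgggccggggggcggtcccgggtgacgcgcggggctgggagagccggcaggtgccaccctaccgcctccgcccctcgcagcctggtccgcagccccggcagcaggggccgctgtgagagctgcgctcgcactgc
Elovl1: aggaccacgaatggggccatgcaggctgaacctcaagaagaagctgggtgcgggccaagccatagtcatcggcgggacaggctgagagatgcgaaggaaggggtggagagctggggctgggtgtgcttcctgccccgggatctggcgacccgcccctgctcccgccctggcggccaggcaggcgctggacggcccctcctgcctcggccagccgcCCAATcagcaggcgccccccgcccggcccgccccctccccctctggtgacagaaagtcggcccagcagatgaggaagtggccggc
Elovl4: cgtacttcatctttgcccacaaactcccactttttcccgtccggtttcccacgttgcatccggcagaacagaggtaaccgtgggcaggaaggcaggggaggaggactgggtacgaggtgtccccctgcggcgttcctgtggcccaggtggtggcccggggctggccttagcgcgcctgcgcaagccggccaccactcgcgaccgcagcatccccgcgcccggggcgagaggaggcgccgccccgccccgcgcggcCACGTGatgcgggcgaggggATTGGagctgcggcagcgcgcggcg

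The RefSeq table held 8 windows for the 6 elongases. Neither TCACNCCAC nor CTGGNAC matched in any of them, and these letters were found in 1.24% and 19.3% of 32851 promoter windows of the same length. In the printed windows CCAAT matched once in Elovl1, 35 bases before the start, and once in Elovl4, which also held CACGTG. Elovl7 held none of the searched letters. The window of Elovl5, which did not rise, held CACGTG once and CCAAT in 2 places, and those of Elovl2 and Elovl6 held none. Across all windows CCAAT was found in 37.4% and CACGTG in 7.15%. No match says only that these letters are not in this window. The printed windows were rich in G and C, at 74.0% for Elovl7, 70.7% for Elovl1 and 71.0% for Elovl4, against a median of 52.7% over all windows, and a window of Elovl2, the gene that fell, reached 84.7%.

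Elovl2 (chromosome 13, 41335858 to 41373880, minus strand), which elongates long polyunsaturated chains towards docosahexaenoic acid, was per kilobase the least abundant member, and the one that fell. It had 335, 337, 367 and 487 normalised counts in the 2aOKO O4 libraries, against 702, 537, 552 and 633 in the 2aOKO OPC libraries. In 2afl/fl it had 322, 605 and 304 in O4 cells, against 562, 735 and 552 in OPCs. The 2aOKO groups did not overlap, as was the case in this direction for 19.0% of all genes tested. In 2afl/fl they did overlap, because the O4 library 2 at 605 was above 2 of the OPC libraries (16.5% of all genes did not overlap in this direction). The log2 difference was -0.67 ± 0.20 in 2aOKO (SE, limma, adjusted p = 0.0169) and -0.65 ± 0.23 in 2afl/fl (SE, limma, adjusted p = 0.0494). The Elovl2 call in 2aOKO was lost without the OPC library 1 (-0.60, adjusted p = 0.0544). In 2afl/fl it was lost without any 1 of the OPC libraries 1, 2 and 3 and the O4 libraries 1 and 3 (adjusted p = 0.0727, 0.17, 0.0715, 0.182 and 0.189), and without the O4 library 2 the difference was -0.96 (adjusted p = 0.000818).

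Elovl5 (chromosome 9, 77824647 to 77891802, plus strand) acts on polyunsaturated chains before Elovl2, and per kilobase it was the most abundant member. It had 8119.9, 7678, 7808 and 8459 normalised counts in the 2aOKO O4 libraries, against 8742, 8279, 8866 and 8710.2 in the 2aOKO OPC libraries. In 2afl/fl it had 6761, 8359 and 7452 in O4 cells, against 8060.1, 8503 and 8774 in OPCs. The groups overlapped in both genotypes, although most O4 values were below the OPC values. The log2 difference was -0.11 ± 0.07 in 2aOKO (SE, limma, adjusted p = 0.233) and -0.17 ± 0.08 in 2afl/fl (SE, limma, adjusted p = 0.118). Without the 2afl/fl O4 library 2 the Elovl5 difference in 2afl/fl passed the threshold, at -0.25 (adjusted p = 0.0127). When every library was rescaled to the same total, which shifted the median of all genes to -0.13 in 2aOKO and -0.12 in 2afl/fl, Elovl5 was called in both genotypes, at -0.23 (adjusted p = 0.0333) and -0.28 (adjusted p = 0.0277).

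Elovl6 (chromosome 3, 129326035 to 129432143, plus strand), which converts palmitate to stearate, had 10154, 9465, 10646 and 8989 normalised counts in the 2aOKO O4 libraries, against 8901, 8051, 9239 and 8603 in the 2aOKO OPC libraries. In 2afl/fl it had 7447, 8569.9 and 11675 in O4 cells, against 7653, 8261 and 8117 in OPCs. The 2afl/fl O4 libraries spanned a wide range that held all 3 of the OPC values. The log2 difference was 0.17 ± 0.11 in 2aOKO (SE, limma, adjusted p = 0.245) and 0.18 ± 0.13 in 2afl/fl (SE, limma, adjusted p = 0.316). Its 95% interval ran from -0.06 to 0.40 in 2aOKO and from -0.09 to 0.45 in 2afl/fl, so a difference of the size seen for Elovl7 or Elovl1 lay outside it. The Elovl6 difference in 2afl/fl was 0.22 without the O4 library 2, 0.32 without the O4 library 1 and -0.0031 without the O4 library 3 (adjusted p = 0.235, 0.0704 and 0.984).

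**Figure D3:**
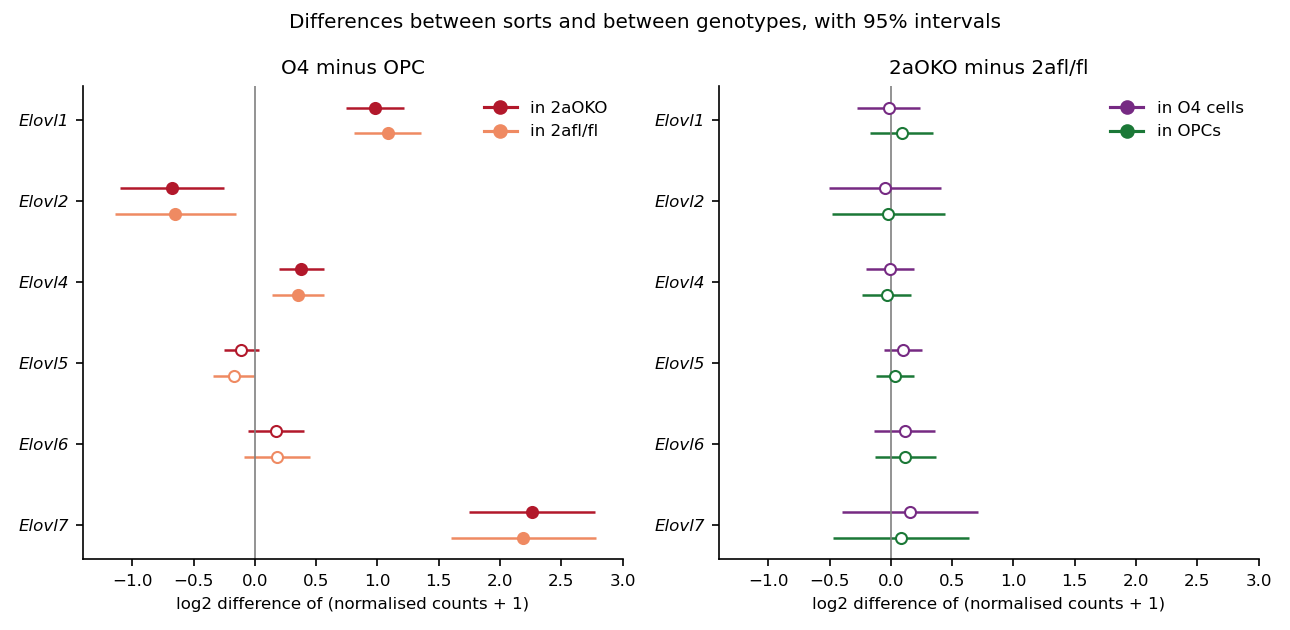
Log2 differences of the 6 Elovl genes with 95% intervals from limma, O4 minus OPC at left and 2aOKO minus 2afl/fl at right, on 1 scale. Filled points had an adjusted p under 0.05. At left Elovl1, Elovl4 and Elovl7 are filled above 0 and Elovl2 below 0 in both genotypes, and at right no point is filled.

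Libraries of the 2 sorts that carry the same number and genotype deviated from their group means together (correlations of 0.16 to 0.33). The number was therefore read as a pair in this paragraph and in an alternative fit. The limma values given above did not use the pairs. The labels do not say that both sorts came from the same brain. Same-numbered libraries of the 2 genotypes, which are different mice, also did so, at 0.07 to 0.30. What the number stands for was not tested. Within these 7 pairs Elovl7, Elovl1 and Elovl4 were higher in the O4 library in 7 of 7 and Elovl6 in 6 of 7. The sorts did not overlap in either genotype for Elovl7, Elovl1 and Elovl4. Any pairing within a genotype would therefore give 7 of 7 for them, and the count adds no support. The log2 differences of Elovl7 within pairs ran from 1.74 to 2.85, those of Elovl1 from 0.70 to 1.35 and those of Elovl4 from 0.12 to 0.51. Elovl2 and Elovl5 were higher in the O4 library in 0 of 7 pairs. Their differences ran from -1.06 to -0.28 for Elovl2 and from -0.25 to -0.02 for Elovl5. The 2aOKO groups of Elovl2 did not overlap, so its 2aOKO pairs were bound to be lower. The share of all genes with 1 direction in all pairs was not computed.

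Markers of other cells also differed between the sorts. Of 12 microglial markers 11 were higher in O4 cells in 2aOKO and 10 in 2afl/fl, and their sum ran from 7968 to 12366 in 2aOKO O4 cells and from 7768 to 12858 in 2afl/fl O4 cells, against 3812 to 4434 in 2aOKO OPCs and 3213 to 5186 in 2afl/fl OPCs. Of 6 border macrophage markers 5 were higher in 2aOKO and 4 in 2afl/fl, with sums of 1135 to 1495 in 2aOKO O4 cells and 1158 to 1538 in 2afl/fl O4 cells, against 249 to 338 and 258 to 327 in the OPCs of the same genotypes. All 7 fibroblast markers were lower in O4 cells, with sums of 8446 to 16187 in 2aOKO and 11493 to 17999 in 2afl/fl, against 24869 to 32676 in 2aOKO OPCs and 30966 to 42441 in 2afl/fl OPCs. Of 10 astrocyte markers 4 were higher and 1 lower in each genotype, and their sums were 37369 to 46853 in 2aOKO O4 cells and 30334 to 44449 in 2afl/fl O4 cells, against 33894 to 35862 and 29600 to 35151 in the OPCs. Of 12 tested neuron markers 1 was higher and 4 lower in 2aOKO, and 2 were higher and 3 lower in 2afl/fl. Of 6 markers of ependyma and choroid plexus 0 were called, but their sums were large and varied. They ran from 100350 to 250752 in 2aOKO O4 cells and from 64194 to 313917 in 2afl/fl O4 cells. In OPCs they ran from 108972 to 202008 in 2aOKO and from 91325 to 290059 in 2afl/fl. No marker of these lists was at 0 in every library of a group. Their part in the differences of the elongases was not tested.

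Among the O4 libraries Elovl7, Elovl1 and Elovl4 varied with the amount of myelin RNA, while Elovl5 and Elovl6 did not pass the test and Elovl2 passed it by Pearson's r but not by Spearman's rho. The sum of 12 myelin genes such as Mbp and Mag ran from 550960 to 1050325 normalised counts in the 2aOKO O4 libraries and from 352441 to 1366481 in the 2afl/fl O4 libraries. Elovl7 followed it, from 3133 in the library with the lowest sum (2afl/fl O4 library 2) and 4606 in the next (2aOKO O4 library 4) to 8360.2 in the library with the highest (2afl/fl O4 library 3). Over the 7 O4 libraries and on the log2 scale, Pearson's r with the myelin sum was 0.98 for Elovl7 (exact permutation p = 0.0004, adjusted p = 0.0012 over 6 genes), with a Spearman's rho of 0.96 (exact permutation p = 0.0028, adjusted p = 0.0056). For Elovl4 r was 0.99 and for Elovl1 0.96 (exact permutation p = 0.0004 and 0.0006, adjusted p = 0.0012 for both), with the same rho and adjusted p as Elovl7. These 3 coefficients were 0.94 without the 2 libraries farthest from the median of the myelin sum, the 2afl/fl O4 libraries 2 and 3.

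Elovl2 ran the other way, with r = -0.89 (exact permutation p = 0.0069, adjusted p = 0.0104) and rho = -0.79 (exact permutation p = 0.048, adjusted p = 0.072), and r was -0.65 without the same 2 libraries. The relation of Elovl2 rested in part on them. For Elovl5 r was -0.61 (exact permutation p = 0.145, adjusted p = 0.174) and rho -0.71 (adjusted p = 0.106), and for Elovl6 r was 0.55 (exact permutation p = 0.195, adjusted p = 0.195) and rho 0.64 (adjusted p = 0.139). Without the same libraries these r were -0.52 and 0.16. With 4 and 3 libraries the genotypes were too small to give the relation separately. The points share their library and its scaling factor, so the coefficients say that the genes varied together and no more. The share of all genes that varied as closely with the myelin sum was not computed. OPC markers summed to 575925 in the 2afl/fl O4 library 2 and 528040 in the 2aOKO O4 library 4, the lowest in myelin. In the rest they summed to 349288 to 444601. The summed markers of committed and newly formed oligodendrocytes were also lowest in the 2afl/fl O4 library 2 (281315) and highest in the 2afl/fl O4 library 3 (732103). The relation is therefore not particular to myelin RNA as far as these values go. Whether the elongases followed those markers or the OPC content of the sort was not tested.

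**Figure D4:**
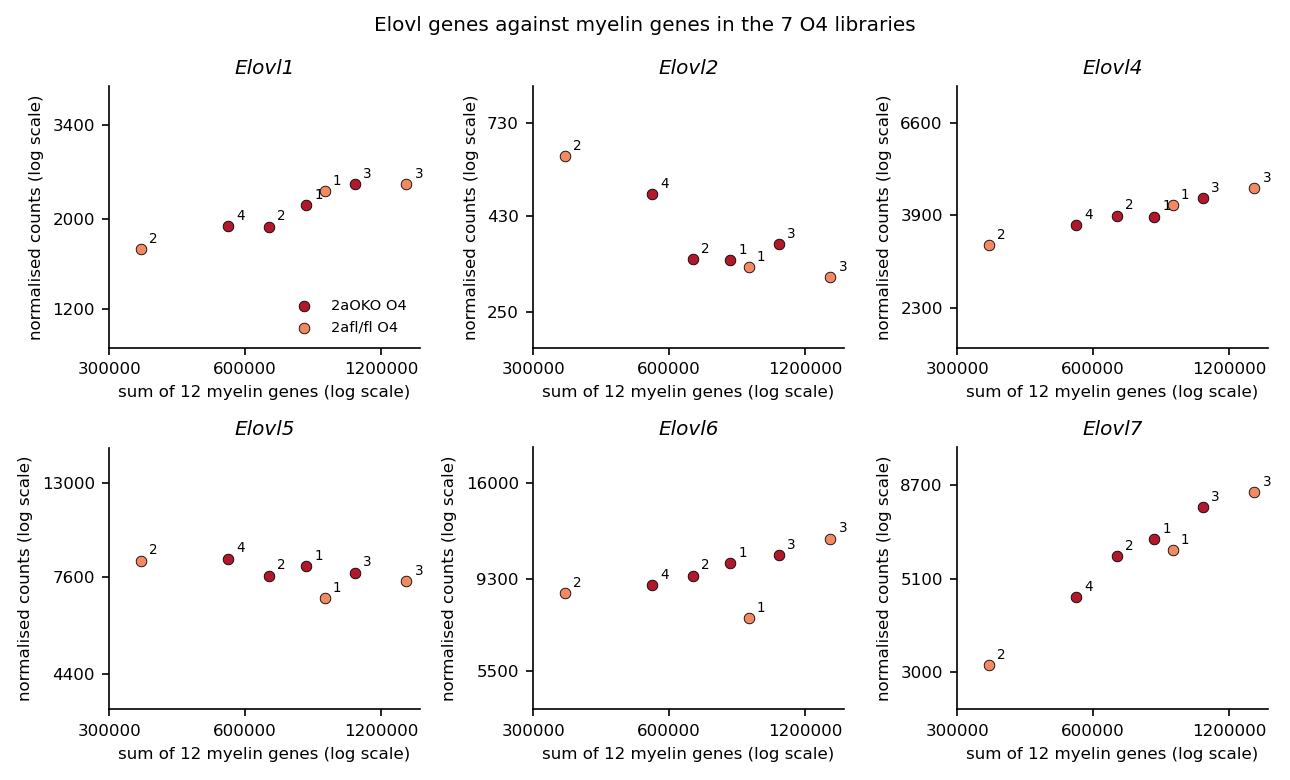
Normalised counts of each Elovl gene against the summed normalised counts of 12 myelin genes in the 7 O4 libraries, both on log scales, with the library number beside each point and every panel spanning the same ratio from bottom to top. Elovl7, Elovl1 and Elovl4 climb with the myelin sum over its range of 352441 to 1366481, and Elovl2 is highest, at 605 and 487, in the libraries with the lowest sums.

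The second comparison asked whether loss of Mfsd2a in the lineage changed the elongases. None of the 6 genes differed between 2aOKO and 2afl/fl at an adjusted p under 0.05 in either sort, and none had groups that were separate. By limma 0 of 15565 genes were called in O4 cells or in OPCs, so the share of all genes called was 0%, with 450 and 251 genes at an unadjusted p under 0.05. None of the elongases was among these. Of all genes, 1.14% were higher and 1.53% lower in every 2aOKO O4 library than in every 2afl/fl O4 library, and 1.88% and 2.87% in OPCs.

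Elovl6, the member whose mRNA is best known as a target of the lipogenic factor Srebp-1c, averaged 9813 ± 733 normalised counts in 2aOKO O4 cells and 9231 ± 2190 in 2afl/fl O4 cells (SD, n = 4 and 3). In OPCs it averaged 8699 ± 504 in 2aOKO and 8010.4 ± 318 in 2afl/fl. The log2 differences were 0.11 in O4 cells, with a 95% interval from -0.14 to 0.36, and 0.12 in OPCs, with an interval from -0.13 to 0.37 (limma, adjusted p = 0.9992 and 0.9999). For Elovl5 the intervals were the narrowest, from -0.06 to 0.25 in O4 cells and from -0.12 to 0.19 in OPCs.

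Elovl7 averaged 6116 ± 1274 normalised counts in 2aOKO O4 cells and 5836 ± 2618 in 2afl/fl O4 cells, and 1257 ± 129 in 2aOKO OPCs and 1209 ± 305 in 2afl/fl OPCs. Its intervals were wide, from -0.40 to 0.71 in O4 cells and from -0.47 to 0.64 in OPCs. The fit gave both sorts 1 shared spread, although in each genotype Elovl7 varied more among O4 than among OPC libraries. Its coefficient of variation was 20.8% in 2aOKO and 44.9% in 2afl/fl O4 cells, against 10.2% and 25.2% in the OPCs. Without the 2afl/fl O4 library 2 its difference in O4 cells changed direction, to -0.24 in place of 0.16 (limma, adjusted p = 0.695). Elovl1 and Elovl4 stood at -0.02 and -0.01 in O4 cells and at 0.09 and -0.03 in OPCs. Elovl2, at -0.05 in O4 cells and -0.02 in OPCs, also had wide intervals, from -0.51 to 0.41 and from -0.48 to 0.44, and without the same library its difference in O4 cells was 0.27 (limma, adjusted p = 0.581). The other members then stood at -0.19 for Elovl1, -0.14 for Elovl4, 0.17 for Elovl5 and 0.07 for Elovl6, with limma's adjusted p between 0.457 and 0.880. Elovl5 alone of the 6 then had an unadjusted p under 0.05 in limma (0.0217), as did 1593 of all 15565 genes in that fit. For Elovl7 and Elovl2 a missed threshold leaves room for sizeable differences in either direction. Over all libraries the intervals of Elovl1 ran from -0.27 to 0.24 in O4 cells and from -0.17 to 0.34 in OPCs. Those of Elovl4 ran from -0.21 to 0.19 and from -0.23 to 0.16.

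The difference between the sorts was also compared between the genotypes. The interaction term was between -0.11 for Elovl1 and 0.07 for Elovl7, no elongase was called, and 0% of all genes were (limma, adjusted p = 0.9999 for these 2 genes, with 132 of all genes at an unadjusted p under 0.05). Without the 2afl/fl O4 library 2 it was -0.27 for Elovl1, -0.32 for Elovl7 and 0.29 for Elovl2, and it was -0.11 for Elovl4, 0.14 for Elovl5 and -0.05 for Elovl6 (adjusted p = 0.997 for each).

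Over all 14 libraries the elongases fell into patterns that followed the sorts. Between members, Pearson's r of log2(value + 1) was 0.97 for Elovl7 with Elovl1, 0.94 for Elovl7 with Elovl4 and 0.95 for Elovl1 with Elovl4. Elovl2 had r = -0.89 with Elovl7 and with Elovl4, and 0.80 with Elovl5. Elovl6 stood further off, between -0.52 and 0.63 with every other member. Among 13691 genes with a mean of at least 50 normalised counts, the 3 whose pattern was nearest to that of Elovl7 were Cyth1, Arhgef28 and Pdgfa (r = 0.997, 0.995 and 0.994). The nearest to Elovl1 were Dusp15, Rnd2 and Ralgds (r = 0.993, 0.992 and 0.992) and to Elovl4 Marcks, Rac1 and Fam3c (r = 0.990, 0.988 and 0.987). Elovl2 was nearest to Trnp1, Kcnj9 and Hrob (r = 0.976, 0.964 and 0.963), Elovl5 to Zhx3, Mmp16 and Kcnj16 (r = 0.952, 0.951 and 0.950) and Elovl6 to Mtpn, Sike1 and Cadm2 (r = 0.938, 0.934 and 0.924). Since the libraries fall into separate sorts, these coefficients are given as a description with no p.

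The enzymes that work with the elongases were described from 7 lists with 65 tested genes. Of these, 23 were higher and 4 lower in O4 cells in 2aOKO and 22 higher and 3 lower in 2afl/fl. Of all 15565 genes tested, 17.6% were higher and 15.5% lower in 2aOKO, and 14.3% and 12.2% in 2afl/fl. These shares also go with the counts of each list below. The list counts in 2afl/fl depended on the libraries and the fit, by alternatives chosen for the lists after the data were seen. Without the 2afl/fl O4 library 2, 26 were higher and 6 lower (3033 and 2847 of all genes). Without the O4 library 3, 15 were higher and 2 lower (1430 and 1287). With the compared groups fitted alone, 7 were higher and 0 lower (628 and 220). In 2aOKO the fit of the compared groups alone gave 25 higher and 6 lower (3375 and 3050). The partners that complete the elongation cycle differed little. Of 6 tested, Hacd2, a dehydratase, was the 1 that rose, by a log2 of 0.31 in 2aOKO and 0.34 in 2afl/fl (limma, adjusted p = 0.0140 and 0.0217). The ketoacyl reductase Hsd17b12 stood at 0.02 and 0.02 and the enoyl reductase Tecr at 0.14 and 0.21, neither called. The median of the list was 0.11 in 2aOKO and 0.10 in 2afl/fl, against -0.02 and -0.01 over all tested genes.

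Supply of substrate was read from enzymes that make malonyl-CoA and palmitate. Of 9 genes 3 rose in 2aOKO (Acly, which makes acetyl-CoA from citrate, the citrate carrier Slc25a1 and the acetyl-CoA synthetase Acss2) and 2 in 2afl/fl (Acly and Slc25a1). Acly was higher by a log2 of 0.29 in 2aOKO and 0.34 in 2afl/fl (limma, adjusted p = 0.0131 and 0.0178). The fatty acid synthase Fasn, at 0.15 and 0.19, and the acetyl-CoA carboxylase Acaca, at 0.04 and 0.02, were not called. The list's median was 0.27 in both genotypes.

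Of 11 acyl-CoA synthetases, which activate fatty acids before elongation, 5 rose in each genotype and 2 fell in 2aOKO and 1 in 2afl/fl. Slc27a3 had the lowest p, with a log2 difference of 1.41 ± 0.12 in 2aOKO and 1.38 ± 0.14 in 2afl/fl (SE, limma, adjusted p = 2.3e-06 and 2.0e-05). Acsl1 was higher by 1.28 and 1.34 and Acsl3 by 1.10 and 1.04. Slc27a6 was lower, at -0.33 and -0.51. The median of the list was 0.05 in 2aOKO and 0.73 in 2afl/fl, and over all tested genes it was -0.02 and -0.01. The gap between these medians came with 1 scarce gene, Slc27a2, which stood at 0.05 in 2aOKO and 0.93 in 2afl/fl and was not called in either. No gene of the list had a called interaction.

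Of 7 desaturases, which introduce double bonds into the chains that elongases make or take, Scd2 rose and Fads6 fell in each genotype. Scd2 was higher by a log2 of 0.34 in 2aOKO and 0.36 in 2afl/fl (limma, adjusted p = 0.0155 and 0.0307). Fads1 and Fads2, which alternate with Elovl5 and Elovl2 in making polyunsaturated fatty acids, were not called, at 0.03 and 0.08 for Fads1 and -0.13 and -0.10 for Fads2. The list's median was -0.03 in 2aOKO and -0.08 in 2afl/fl.

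Very long chains are used in ceramide and galactolipid synthesis. Of 9 genes of ceramide and galactolipid synthesis 5 rose and 1 fell in 2aOKO, and 6 rose and 1 fell in 2afl/fl. Fa2h, which hydroxylates the fatty acids of myelin galactolipids, averaged 7561 normalised counts in 2aOKO O4 cells and 7593 in 2afl/fl O4 cells, against 1393 in 2aOKO OPCs and 1227 in 2afl/fl OPCs, a log2 difference of 2.42 ± 0.24 in 2aOKO and 2.53 ± 0.28 in 2afl/fl (SE, limma, adjusted p = 6.8e-06 and 3.4e-05). Ugt8a, which adds galactose to ceramide, was higher by 1.87 and 1.76, and Gal3st1, which sulfates the product into the antigen the O4 beads bind, by 1.27 and 1.23. Because the O4 sort selects on that product, a difference of Gal3st1 and Ugt8a is near to what the sort chose. Cers2, the ceramide synthase that takes the very long chains made by Elovl1, was higher by 0.42 and 0.50 (limma, adjusted p = 0.00523 and 0.00632), and Cers4 was lower, at -0.45 and -0.47. The medians were 0.42 and 0.50.

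Breakdown of very long chains was covered by 10 genes of peroxisomal import and oxidation, of which 6 rose in each genotype. Among them were the transporters Abcd2 and Abcd3, the thiolases Acaa1a and Scp2, and the bifunctional enzyme Ehhadh. Scp2 was higher by a log2 of 0.54 in 2aOKO and 0.55 in 2afl/fl (limma, adjusted p = 0.00134 and 0.00484) and Abcd2 by 0.83 and 0.94 (limma, adjusted p = 0.00385 and 0.00691). The list's median was 0.35 in 2aOKO and 0.40 in 2afl/fl.

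Of 13 regulators of fatty acid synthesis 2 rose in 2aOKO, Mlxipl (the carbohydrate response factor, at 0.94) and Mbtps2 (a protease that releases Srebp, at 0.40), and Mlxipl alone rose in 2afl/fl (1.08). Mlxipl was scarce, at 38.1 normalised counts in 2aOKO O4 cells and 43.6 in 2afl/fl O4 cells, against 19.7 and 20.1 in the OPCs. Srebf1, which encodes the factor that acts on Elovl6, stood at -0.15 in 2aOKO and 0.15 in 2afl/fl, not called. The median of the list was -0.03 in 2aOKO and 0.00 in 2afl/fl. Between the genotypes limma called 0 of the 65 genes in either sort, with 2 at an unadjusted p under 0.05 in O4 cells (Scd1 and Mbtps2) and 6 in OPCs (Srebf1, Cers3, Fads1, Scd1 and Thrsp among them). Scd1 stood at 0.37 in O4 cells and 0.30 in OPCs and Srebf1 at 0.47 in OPCs, on the log2 scale of 2aOKO minus 2afl/fl.

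**Figure D5:**
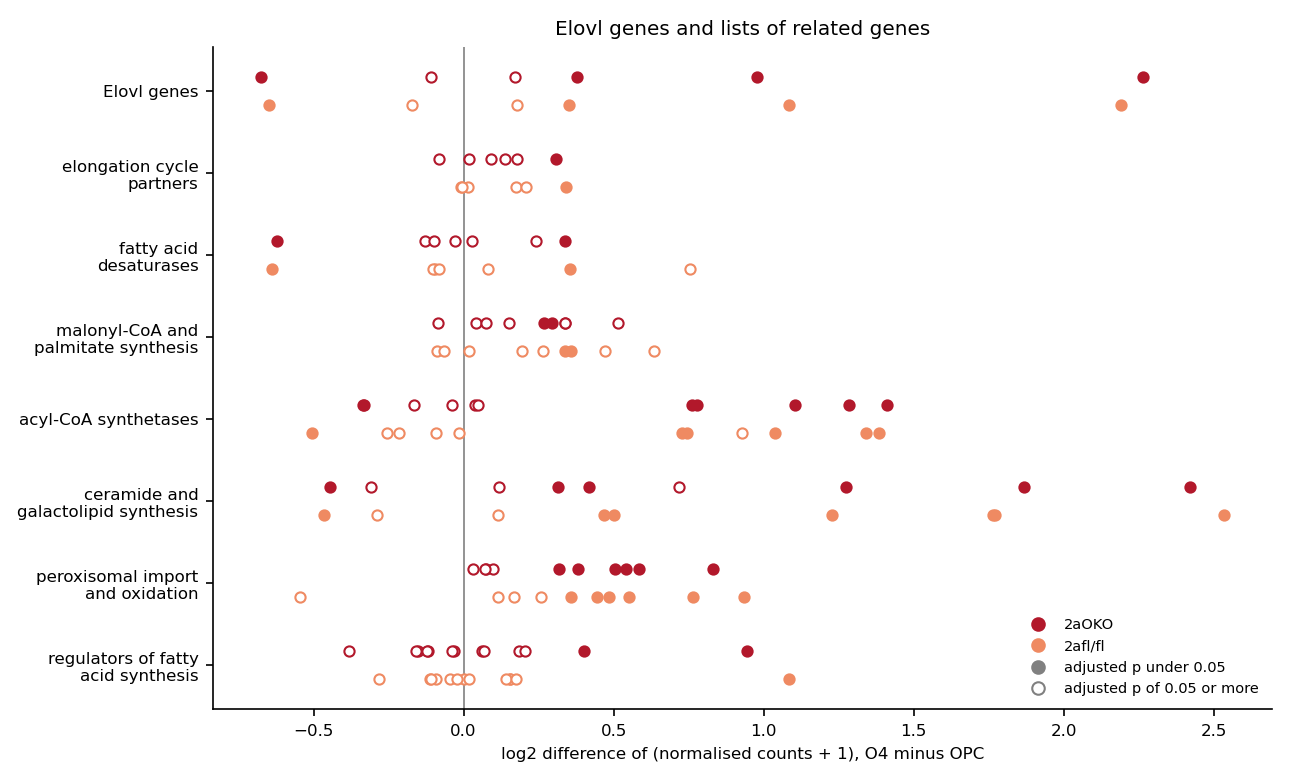
Log2 differences between O4 cells and OPCs for the Elovl genes and the 7 lists of related genes, with 1 point per gene and genotype, filled where the adjusted p was under 0.05. In the top row the Elovl genes spread from -0.67 to 2.26 in 2aOKO and from -0.65 to 2.19 in 2afl/fl, while the row of their cycle partners runs from -0.08 to 0.31 in 2aOKO and from -0.01 to 0.34 in 2afl/fl.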

How the data were processed

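According to the study's methods and the submitters' notes, reads were aligned to mm39 with STAR 2.7.8a, annotated with RefSeq and handled in Partek Flow 10. The authors deposited signal values, each a gene's read count over the size factor of its library (median ratio). That factor adjusts for library depth, but the values are scaled neither to equal totals nor to gene length. Counting error per gene cannot be given from them. 3 deposited tables of the authors' DESeq2 comparisons (p-values, false discovery rates, fold changes, group means) were not used.

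Values were taken as log2(value + 1), which understates changes of low genes, and the 15565 genes that averaged 10 or more were tested. limma 3.58.1 (R 4.3.3) fitted all 14 libraries together, 1 mean for each group and a trend on intensity, with two-sided tests and Benjamini-Hochberg adjustment over all genes tested. The fit was run on simulated data with 1 spread per gene and independent libraries. That run could not show how the fit behaves with unequal spread or paired libraries. Genes are called at an adjusted p under 0.05. No label says that libraries came from separate animals. The paper states that its figure legends count animals, and its RNA-Seq legend gives 3 to 4 per genotype. The p-values measure the spread between these libraries. Deviations from the group means correlated at 0.16 to 0.33 between same-numbered O4 and OPC libraries of 1 genotype (all 7 pairs above 0.1), and at 0.07 to 0.30 between same-numbered libraries of the genotypes.

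The genes named were the 7 members, the 3 genes most like each by Pearson's r, and called or needed genes of the lists. Pdgfra, Mbp, Mag, Slc27a2 and list genes that were not called were named after their values were seen. Of the lists, Acsbg2 has no row, and Tecrl, Scd3 and Slc27a5 fell under the filter. Members and lists were chosen with earlier results of these data known. Coordinates are those of the authors' file in mm39, which does not say whether its starts count from 0 or 1. Exon lengths are unions of GENCODE vM21 exons, and promoters are from RefSeq on GRCm38.p6. Alternatives were other pseudocounts, filters, scaling, weights, no trend, a fit of the compared groups alone, a replicate block and leaving out each library.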

Additional observations from a re-analysis of the deposited data

How the results depend on the processing

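The calls of Elovl1 and Elovl7 between the sorts held under every alternative run. With the replicate block (same-numbered libraries of the sorts paired) 4 members were again called in each genotype, with Elovl2 at an adjusted p of 0.00225 in 2aOKO and 0.00832 in 2afl/fl in limma. The block changed no call of a member. Of all genes it called 6142 in 2aOKO, against 5145 without it, and 5237 in 2afl/fl, against 4128. Fitting the compared groups alone called 2 members in 2afl/fl, against 4, and 848 genes, against 4128, while in 2aOKO it called 4 members and 6425 genes, against 5145. In 2afl/fl Elovl4 and Elovl2 then lost their calls (limma, adjusted p = 0.131 and 0.163), and Elovl2 also did with no filter (0.0545) and no trend (0.0715). The cause was not tested.

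Leaving out 1 library at a time gave 2 to 5 members and 2475 to 5880 genes called in 2afl/fl, the fewest without its O4 library 1 (2475) or O4 library 3 (2717). Between genotypes in O4 cells it gave 0 to 4 genes, the 4 without the 2afl/fl O4 library 3. Elovl6 in 2afl/fl ran from -0.0031 to 0.32 between the sorts. Differences between the genotypes near 0 changed sign. In OPCs the ranges were -0.0934 to 0.11 for Elovl2, -0.0539 to 0.0022 for Elovl4 and -0.0892 to 0.27 for Elovl7. In O4 cells they were -0.19 to 0.0801 for Elovl1, -0.23 to 0.27 for Elovl2, -0.14 to 0.0914 for Elovl4, -0.0306 to 0.29 for Elovl6 and -0.24 to 0.47 for Elovl7. For the interaction they were -0.21 to 0.29 for Elovl2, -0.11 to 0.13 for Elovl4, -0.0132 to 0.14 for Elovl5, -0.15 to 0.18 for Elovl6 and -0.32 to 0.39 for Elovl7.

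Library weights also turned Elovl2 (0.0186 in OPCs, 0.0288 in O4 cells, 0.0102 for the interaction), Elovl4 (-0.0426 for the interaction) and Elovl7 (-0.0048 in O4 cells, -0.0525 for the interaction), and the replicate block turned Elovl4 in O4 cells (0.0003). None of these was called. Read depth is not known from the scaled values, so what it limits was not tested.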
